A study of Mus musculus with 6 samples.

Results

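The 10 genes described here mark the vascular endothelium, the cell layer that lines the aorta: the transcription factor genes Sox17, Sox18 and Klf2, the receptor genes Tie1, Tek, Kdr, Flt1 and Eng, and the genes of 2 endothelial products, Vwf and Nos3. They were chosen by name, as the probes whose gene symbol in the authors' deposited intensity table is a member, and 11 probes of the 39362 with a value on every array matched. Members and the gene lists below were chosen with earlier results of these data known. Their counts beside the shares of all features are therefore descriptive and no independent support. When each gene was represented by its brightest probe, these were 10 of 35027 features, and all 10 were tested. Sox17 was the only member with over 1 probe, and its dim probe (mean reference intensity 0.04 in arbitrary units) read 0 on all 6 arrays. The values were transcript ratios from 2-colour Agilent arrays, on which the Cy5-labelled RNA of an aorta was set against a common Cy3-labelled reference of C57BL6 control RNA. They are given as log2 ratios, so that 0 means a level equal to the reference.

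The 3 ApoE KO aortas came from knockout mice that lack apolipoprotein E, a ligand for the clearance of lipoproteins, labelled 32 weeks old, and carried atherosclerotic lesions per the labels. The 3 WT aortas came from wild type C57BL6 mice, labelled 24 weeks old, in which no lesion was seen. Both groups ate a high-fat diet, by the protocol for 16 weeks from an age of 8 weeks, and the labels of both give the background as C57BL6 db/+. The reference RNA was from the aorta of wild type C57BL6 mice on the same diet. Labels were in conflict on age, since the source names of both groups name db/+ mice at another age. Age, and perhaps diet length and a vehicle that the headings of unassigned arrays mention, cannot be told apart from genotype. The labels call the samples biological replicates and say neither sex nor whether aortas were pooled. WT replicates 2 and 3 carry the same animal number in their source names. If they came from 1 mouse, the WT group holds 2 mice, and the SE and p values below may be too small. In whole aorta, more endothelial cells and more RNA per endothelial cell cannot be told apart in any value below. Apoe, the targeted gene, had log2 ratios of -1.31, -1.21 and -1.31 in the ApoE KO aortas, against 0.00, -0.32 and 0.12 in the WT aortas, so its direction follows the labels. Smooth muscle markers of the aorta gave signal in both groups, apart from Des, whose level (the reference intensity scaled by the ratios) was under 0.05.

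Arterial endothelial cells owe their identity to SOXF factors (SOX17 and SOX18 with SOX7), which act with NOTCH signalling, and to KLF2, which laminar blood flow induces and which raises the transcription of Nos3. VEGF signals through KDR (VEGFR2), while FLT1 (VEGFR1) binds VEGF with high affinity and limits what reaches KDR. Angiopoietins act on TEK (TIE2) with TIE1 as its partner and keep the endothelium quiescent, and ENG (endoglin) is a co-receptor for BMP9 and TGF-beta. VWF is stored in Weibel-Palade bodies and tethers platelets, and NOS3 makes the nitric oxide that relaxes smooth muscle and restrains leukocyte adhesion.

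Promoter windows from RefSeq (GRCm38.p6), from 250 bases before to 50 after the gene start, matched 6 of the 10 members by symbol: Flt1, Tie1, Eng, Kdr, Tek and Klf2. Vwf, Sox17, Sox18 and Nos3 were not matched. AGGAAG, a core that ETS factors of endothelial genes recognise, and TATAAA, the TATA box, were searched on both strands, and matches are in capitals with no overlap between the motifs. AGGAAG stood in 35.4% and TATAAA in 13.6% of the 32851 windows in the table. The windows of Flt1, Tie1 and Eng are shown because these 3 receptor genes hold the same ETS letters, while Flt1 rose in the knockout and Eng showed no separation between the groups.
Flt1 promoter, chr5:147725962-147726261, minus strand: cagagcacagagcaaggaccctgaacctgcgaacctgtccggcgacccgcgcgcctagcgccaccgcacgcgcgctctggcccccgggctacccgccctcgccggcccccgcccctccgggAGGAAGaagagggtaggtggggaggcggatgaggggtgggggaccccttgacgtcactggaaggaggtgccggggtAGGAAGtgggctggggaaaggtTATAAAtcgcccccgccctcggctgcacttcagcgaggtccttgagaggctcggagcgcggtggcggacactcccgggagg
Tie1 promoter, chr4:118489800-118490099, minus strand: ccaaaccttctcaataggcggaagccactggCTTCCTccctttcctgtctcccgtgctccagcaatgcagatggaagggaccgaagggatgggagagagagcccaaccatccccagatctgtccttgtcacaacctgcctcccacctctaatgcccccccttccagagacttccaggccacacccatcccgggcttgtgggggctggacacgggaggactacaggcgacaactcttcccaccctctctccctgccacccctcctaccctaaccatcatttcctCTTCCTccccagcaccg
Eng promoter, chr2:32646345-32646644, plus strand: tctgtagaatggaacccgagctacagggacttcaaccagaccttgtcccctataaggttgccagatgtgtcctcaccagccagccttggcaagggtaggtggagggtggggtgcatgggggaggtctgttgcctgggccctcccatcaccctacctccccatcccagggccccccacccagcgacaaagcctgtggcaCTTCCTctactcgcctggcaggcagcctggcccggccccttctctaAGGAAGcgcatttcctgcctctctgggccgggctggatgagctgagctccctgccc
AGGAAG or its reverse CTTCCT occurred in these 3 of the 6 windows and TATAAA or its reverse in that of Flt1, and the Kdr, Tek and Klf2 windows held neither. The letters were not tested as binding sites.

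The comparison asked how these genes differ between ApoE KO and WT aortas on a high-fat diet. Sox17, Vwf and Flt1 rose in the knockout, by 1.44-fold, 1.39-fold and 1.19-fold, and 0 members fell. Sox18, Kdr, Tie1 and Klf2 had all ApoE KO values above all WT values without passing an adjusted p of 0.05 in limma, Tek and Eng were not separated, and Nos3 was the member with a lower mean in the knockout. Vwf and Flt1 have levels under 0.5 (0.16 and 0.45), where rounding weighs more and where nearly all false calls of this fit on simulated arrays lay. The simulation does not show how many real calls are false. The 3 of 10 called higher stand beside 6.73% of the 35027 features called higher, 8.0% called lower and 14.7% called in either direction. At an unadjusted p under 0.05, 7 members were higher and 0 lower. The share of all features at that unadjusted threshold was not counted, here or for the unadjusted counts below, so these counts have no background. The ApoE KO values lay above all WT values for 7 members, against 11.0% of all features. The median log2 fold change of the members was 0.26, and it was -0.02 over all features. Of the 5 members with a level of at least 0.5, where rounding weighs little, 4 had non-overlapping groups upward, against 23.2% of the 9034 features at that level. When limma was run on those 9034 features alone, 4 of the 5 were called higher (Sox17, Sox18, Tie1 and Klf2), against 19.0% of the features in that fit. That fit called 43.4% of its features in either direction and 24.5% lower. Shares over all features, here and beside the lists below, are thus low for bright genes. The count moved with the scaling. After each array was centred on its features with a level of at least 0.5, 5 members were called higher against 9.15% of features. After quantile normalization 0 were called against 2.49%. The count also moved with the scaling unchanged. It was 1 with a block for replicate number (3.66% of features called higher) and 1 to 4 with 1 array left out in turn (4.9% to 5.92%). Centring also moved the split over all features, to 3205 higher and 1773 lower, against 2357 higher and 2801 lower without it.

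**Figure D1:**
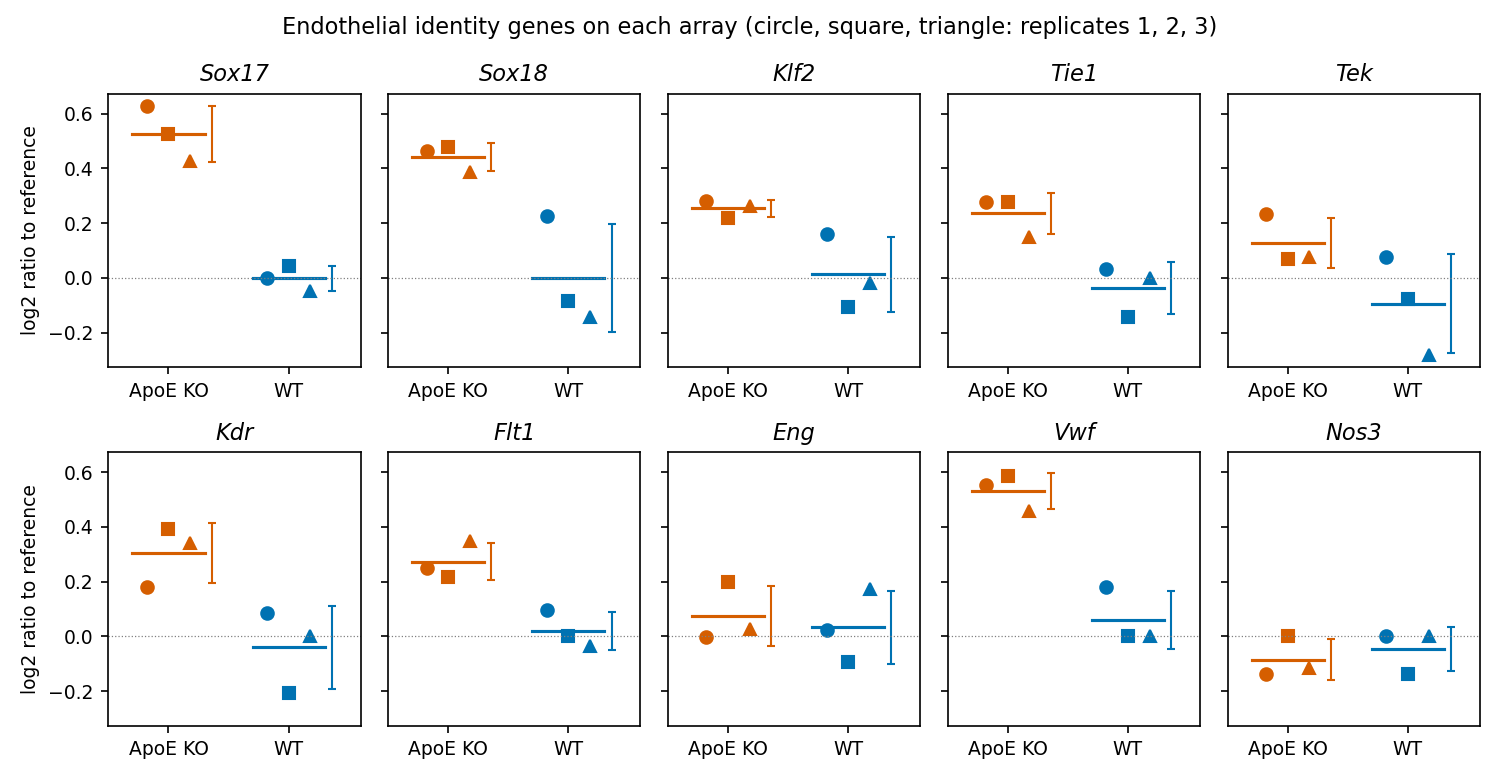
Log2 ratio to the common reference (y axis) of each of the 10 genes on the 3 ApoE KO arrays (left, orange) and the 3 WT arrays (right, blue). Lines are group means and bars beside them the SD (n = 3). Sox17 and Vwf show the widest gaps between the groups, and Nos3, Eng and Tek overlap.

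Of the transcription factors, Sox17 showed the largest log2 fold change of the 10 members. It had log2 ratios of 0.63, 0.52 and 0.43 in the ApoE KO aortas, against 0.00, 0.04 and -0.05 in the WT aortas. All 3 knockout values were above all wild type values, with 0.38 between the lowest of the one and the highest of the other. Its log2 fold change was 0.53 ± 0.06 (SE, n = 3 per group, as for all fold changes below), with an adjusted p of 0.00794 in limma. It stayed between 0.48 and 0.58 with 1 array left out in turn and was called in each of these 6 fits, and it was 0.34 after quantile normalization (adjusted p 0.0526). With the mean of its probes, the dim one at 0 included, it was 0.26 (adjusted p 0.00838). SOX18, whose loss of function in people and mice disturbs vascular and lymphatic development, showed a difference of similar size with a wider spread. Sox18 read 0.46, 0.48 and 0.39 in the ApoE KO aortas, against 0.23, -0.08 and -0.14 in the WT aortas. WT replicate 1 was the high wild type sample, and the groups did not overlap. Its log2 fold change was 0.44 ± 0.11 with an adjusted p of 0.069, which became 0.0106 without WT replicate 1 and was 0.144 to 0.198 without each of the other arrays.

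Klf2, the flow-induced factor, read 0.28, 0.22 and 0.26 in the ApoE KO aortas, against 0.16, -0.10 and -0.02 in the WT aortas. The groups did not overlap, and the knockout values were the tightest of any member (SD 0.03), while WT replicate 1 again came closest to the knockout. Klf2 differed by 0.24 ± 0.08 on the log2 scale with an adjusted p of 0.121, which became 0.0253 without WT replicate 1 and 0.0254 among features with a level of at least 0.5.

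Tie1, the orphan partner of TEK, read 0.28, 0.28 and 0.15 in the ApoE KO aortas, against 0.03, -0.14 and 0.00 in the WT aortas. The groups were apart by 0.12 with ApoE KO replicate 3 lowest of the knockout, and the log2 fold change was 0.27 ± 0.06 with an adjusted p of 0.0617, not past the threshold. Tek, the angiopoietin receptor itself, read 0.23, 0.07 and 0.08 in the ApoE KO aortas, against 0.08, -0.08 and -0.28 in the WT aortas. WT replicate 1 lay within the knockout values, so the groups overlapped. The gap from the highest wild type to the lowest knockout value was only -0.008, less than 1 rounding step. Its log2 fold change was 0.22 ± 0.11 with an adjusted p of 0.263, and the 95% interval ran from -0.07 to 0.51, which still admits a difference as large as that of Tie1. The reference intensity of the Tek probe was 0.18 and the authors' values are written in steps of 0.01, so that 1 step is worth 0.08 on the log2 scale there and the group difference came to 2.8 steps.

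Flt1 and Kdr, the VEGF receptors among the members, had all ApoE KO values above all WT values. Flt1 read 0.25, 0.22 and 0.35 in the ApoE KO aortas, against 0.10, 0.00 and -0.04 in the WT aortas. ApoE KO replicate 3 was highest and the groups did not overlap. Its log2 fold change of 0.25 ± 0.05 had an adjusted p of 0.0445, close to the threshold, and the call was lost in all 6 fits that left out an array (adjusted p 0.0527 to 0.137). After quantile normalization Flt1 was at 0.13 (adjusted p 0.62). Kdr read 0.18, 0.39 and 0.34 in the ApoE KO aortas, against 0.09, -0.21 and 0.00 in the WT aortas. Its groups did not overlap either, although ApoE KO replicate 1 came within 0.09 of WT replicate 1. The log2 fold change of Kdr was 0.34 ± 0.10 with an adjusted p of 0.103. The difference in Kdr equalled 3.9 rounding steps at a reference intensity of 0.15, and that in Flt1 8.2 steps at 0.42.

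Eng showed no separation between the groups, on a probe whose reference intensity of 15.8 made rounding negligible. It read 0.00, 0.20 and 0.03 in the ApoE KO aortas, against 0.02, -0.09 and 0.17 in the WT aortas. The groups overlapped throughout, with the highest knockout and the highest wild type value side by side. Eng differed by 0.04 ± 0.09 on the log2 scale, with an adjusted p of 0.856 and a 95% interval from -0.21 to 0.29, and its sign turned without ApoE KO replicate 2 (-0.02) or WT replicate 2 (-0.02). The promoter windows of Eng, Flt1 and Tie1 printed above all hold AGGAAG on either strand, and the log2 fold changes of these genes ran from 0.04 to 0.27.

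Vwf, the platelet-tethering glycoprotein, read 0.55, 0.58 and 0.46 in the ApoE KO aortas, against 0.18, 0.00 and 0.00 in the WT aortas. The lowest knockout value was 0.28 above the highest wild type value, that of WT replicate 1. Vwf rose by 0.47 ± 0.07 on the log2 scale with an adjusted p of 0.0149, and was at 0.20 after quantile normalization (adjusted p 0.62). The call was lost without ApoE KO replicate 1 (adjusted p 0.0649), ApoE KO replicate 2 (0.055) or WT replicate 2 (0.0596), while the fold change stayed between 0.44 and 0.53. The reference intensity was 0.14, 1 rounding step is worth 0.10 on the log2 scale and the difference came to 5.8 steps. Platelets also hold VWF, and 3 of 6 platelet markers rose (Gp9, Ppbp and Gp1ba, by 0.29, 0.78 and 0.33) and 0 fell, against 6.73% of all features called higher. These 3 calls were kept in 1 or 2 of the 6 fits with 1 array left out. The levels of the 6 markers, each taken as reference intensity times ratio and summed over the list, ran from 17.4 to 20.8 in the ApoE KO aortas and from 12.2 to 14.8 in the WT aortas. No platelet marker was under a level of 0.05, although Gp6 had the same value in all 6 samples. The part of platelets in the Vwf result was not tested.

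Nos3, the endothelial nitric oxide synthase, was the only member with a lower mean in the knockout. It read -0.14, 0.00 and -0.12 in the ApoE KO aortas, against 0.00, -0.14 and 0.00 in the WT aortas. The values overlapped, and the log2 fold change was -0.04 ± 0.06 with an adjusted p of 0.717 and a 95% interval from -0.19 to 0.12. At a reference intensity of 0.11, 1 rounding step is worth 0.12, so every Nos3 value lies within about 1 step of the reference and a change smaller than that was not detectable. Its sign depends on the scaling: the log2 fold change was 0.01 after centring each array on its features with a level of at least 0.5 and 0.03 after quantile normalization.

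**Figure D2:**
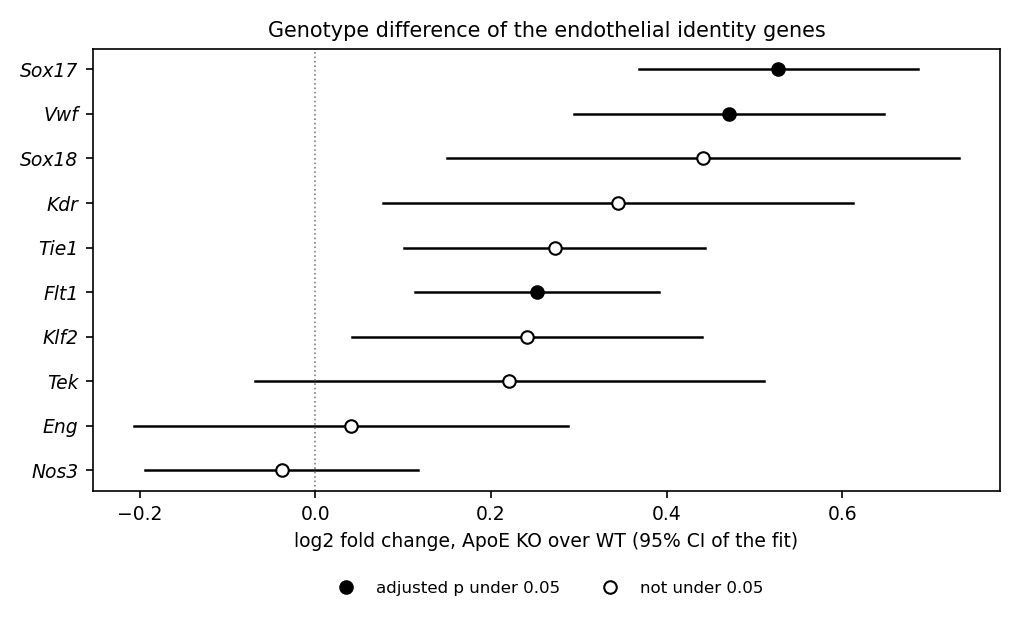
Log2 fold change (x axis, ApoE KO over WT, limma) of the 10 genes with the 95% confidence interval of the fit, ordered by size. Filled points passed an adjusted p of 0.05. Intervals of Tek, Eng and Nos3 cross 0, and Sox17 stands highest at 0.53.

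WT replicate 1 alone was the highest wild type sample for 7 of the 10 members, and WT replicate 2 alone the lowest for 5, with WT replicate 3 alone the lowest for the other 4 that had no tie. The median log2 ratio of the members was 0.26, 0.25 and 0.30 on ApoE KO replicates 1, 2 and 3, against 0.08, -0.09 and -0.01 on WT replicates 1, 2 and 3. Within the knockout, ApoE KO replicate 2 alone was highest for 5 members, ApoE KO replicate 1 for 3 and ApoE KO replicate 3 for 1, and replicates 1 and 2 were equal for Tie1. Cardiac muscle markers, which heart tissue left on an aorta would carry, had medians of -0.60, 0.37 and 0.63 in the ApoE KO aortas, against 0.00, -0.67 and 0.00 in the WT aortas, and 1 of 8 (Nppa) rose and 0 fell, beside 6.73% of all features called higher. Nppa had an adjusted p of 0.049 at a reference intensity of 0.1, and its call was kept in 1 of the 6 fits with 1 array left out and lost after quantile normalization (0.105). Their summed level ran from 16.1 to 31.3 in the ApoE KO aortas and from 15.4 to 24.6 in the WT aortas, with none under a level of 0.05. ApoE KO replicate 1 and WT replicate 2 were thus the low samples in these markers, and the part of heart tissue in the members' values was not tested.

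**Figure D3:**
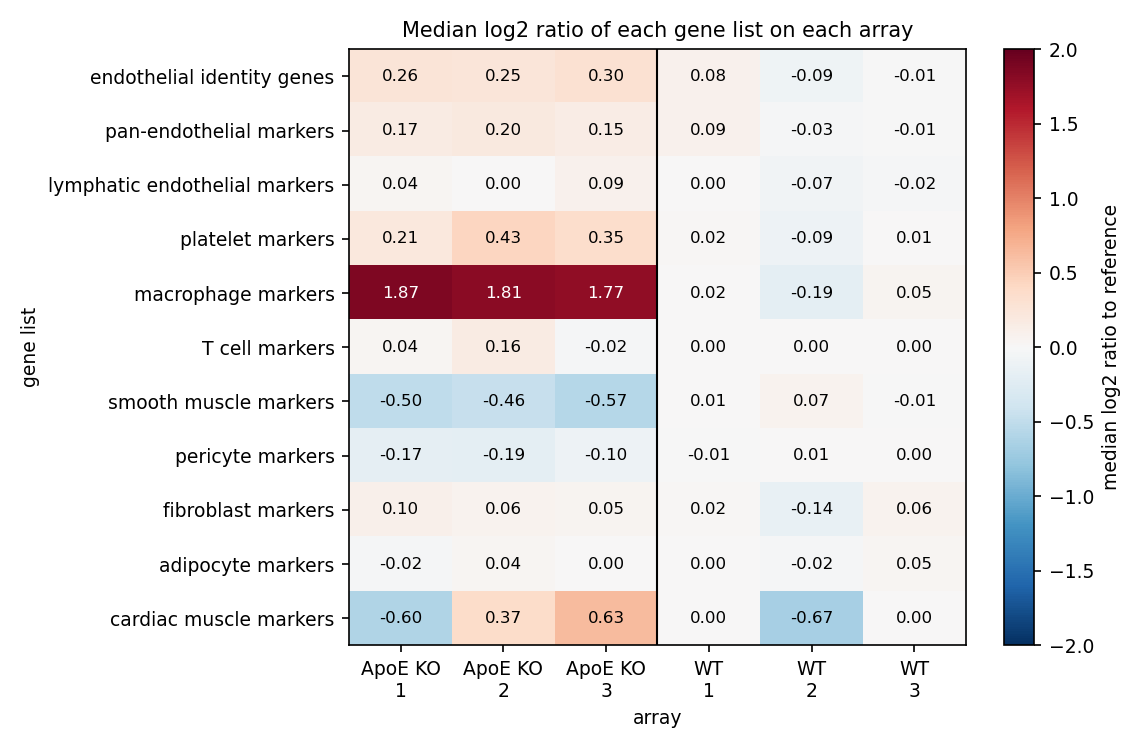
Median log2 ratio of the 10 endothelial identity genes and of lists of cell type markers (rows) on each array (columns, ApoE KO left of the line and WT right of it), as colour and as printed value. The endothelial identity genes lie between 0.25 and 0.30 on the ApoE KO arrays, and macrophage markers between 1.77 and 1.87.

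General endothelial markers that are no members moved in part. Of 16, 6 rose and 0 fell, beside 6.73% of all features called higher and 8.0% called lower, and the median log2 fold change was 0.13. The sphingosine 1-phosphate receptor gene S1pr1 had the lowest p (0.74 ± 0.06), followed by Myct1 (0.53 ± 0.07) and the junctional gene Esam (0.18 ± 0.03), and Emcn, Mmrn2 and Podxl rose by 0.73, 0.40 and 0.26. The call of S1pr1 was kept in all 6 fits with 1 array left out, and those of the other 5 in 1 to 5 of them. After quantile normalization 0 of the 6 calls were left, and S1pr1 was at 0.47 (adjusted p 0.116). The remaining 10 did not pass: Robo4 was at 0.27, Ptprb at 0.14, Cldn5 and Clec14a at 0.12, Egfl7 at 0.11, Aplnr at 0.10, Icam2 at 0.00, Cdh5 at -0.02, Pecam1 at -0.03 and Erg at -0.04 on the log2 scale. Aplnr, Cdh5 and Pecam1 were read on dim probes (levels 0.14, 0.17 and 0.31), and their differences were under 1 rounding step. Of 14 macrophage markers 13 rose (median 1.94, Cd68 at 0.15 the exception), with a summed level from 312 to 359 in the ApoE KO aortas and from 69.7 to 86.0 in the WT aortas, and smooth muscle markers fell in 9 of 11 (median -0.61), with sums from 393.5 to 449 in the ApoE KO aortas and from 652 to 699 in the WT aortas. Of 10 fibroblast markers 2 rose (Col1a1 and Lum) and 1 fell (Serpinf1), of 6 pericyte markers 0 rose and 2 fell (Kcnj8 and Cspg4), of 8 adipocyte markers 0 rose and 1 fell (Lep), and of 7 T cell markers 0 were called in limma, with 1 higher at an unadjusted p under 0.05. With 1 array left out in turn, the calls of Col1a1, Lum and Lep were kept in all 6 fits, those of Serpinf1 and Kcnj8 in 2 and that of Cspg4 in 1, and neither pericyte call was kept after quantile normalization. The difference in Lep was under 1 rounding step. The part of these shifts in the values of the members was not tested.

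Set against the median of these 16 markers on the same array, the members did not form a block. Sox17 remained higher by 0.37, Vwf by 0.31, Sox18 by 0.28 and Kdr by 0.19 in the ApoE KO aortas, and their groups did not overlap. For Kdr the lowest knockout value was 0.0136 and the highest wild type value 0.0080. They lie closer than 1 rounding step of its probe (0.09). With the mean of its probes Sox17 was higher by 0.11 on this scale. Of all features, 5.1% had all ApoE KO values above all WT values on this scale, and 63.9% had them all below. Nos3 ran the other way, with -0.30, -0.20 and -0.27 in the ApoE KO aortas, against -0.09, -0.11 and 0.01 in the WT aortas, a difference of -0.20 with no overlap, as that 63.9% of features showed. Each of these 5 had p = 0.1 in an exact permutation test over samples (two-sided), the smallest that 3 against 3 allows, and 0.2 after Benjamini-Hochberg adjustment over the 10 members, so this design cannot reach 0.05. Tie1, Flt1, Klf2, Tek and Eng overlapped on this scale, with differences of 0.12, 0.10, 0.08, 0.06 and -0.12. The group difference in Nos3 itself was -0.04, below 1 rounding step.

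**Figure D4:**
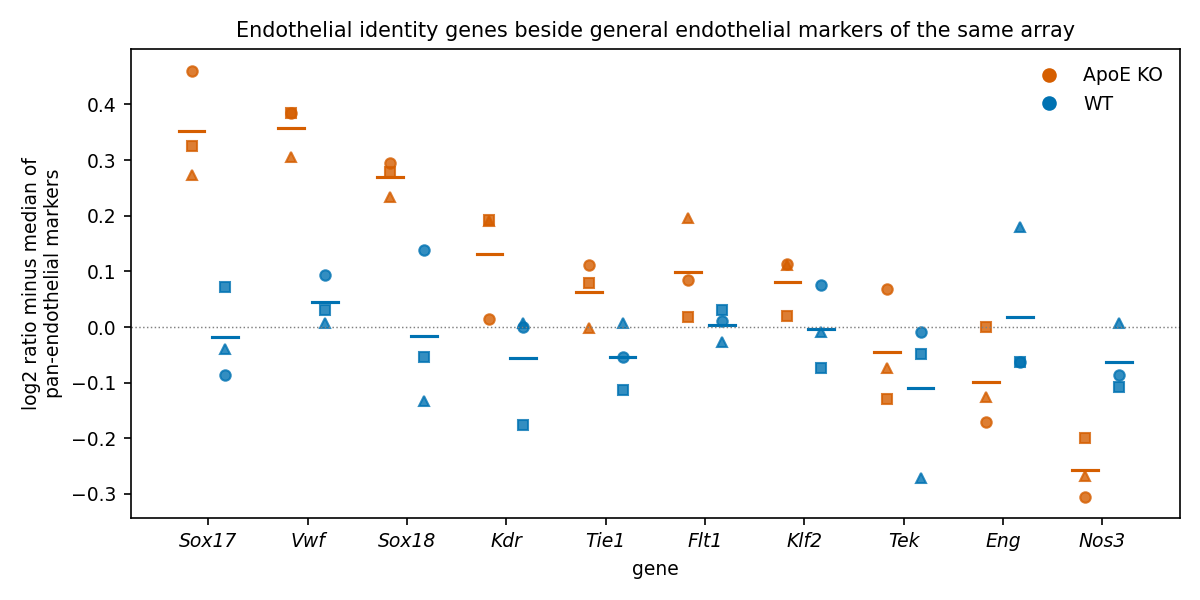
Log2 ratio of each of the 10 genes minus the median log2 ratio of 16 general endothelial markers of the same array (y axis), for the ApoE KO arrays (left of each pair, orange) and the WT arrays (right, blue). Lines are group means, and circle, square and triangle are replicates 1, 2 and 3. Sox17, Vwf, Sox18 and Kdr lie higher and Nos3 lower in the knockout without overlap, Kdr by less than 1 rounding step.

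Among the genes that work with these members, those of the VEGF system moved at the co-receptors and at 1 ligand. Of 8 VEGF ligands and co-receptors, 3 rose and 0 fell, beside 6.73% of all features called higher and 8.0% called lower. Nrp1, a co-receptor of KDR that other cell types express too, rose by 0.72 ± 0.05 (adjusted p 0.00191) with 0.79, 0.66 and 0.71 in the ApoE KO aortas, against 0.07, -0.02 and -0.04 in the WT aortas, while its dimmer probes were at 0.44 and 0.09. Nrp2 rose by 0.63 ± 0.04 (0.00138), and its probes disagreed, with 0.24 and -0.04 on 2 dimmer ones. Pgf, the placental growth factor that binds FLT1 but not KDR, rose by 0.42 ± 0.07 (0.029), and its call was kept in 2 of the 6 fits with 1 array left out. Vegfa, the main ligand of KDR, was at 0.07 ± 0.07 (0.554) on a probe with a level of 0.21. Vegfb, also a ligand of FLT1, was at -0.15 ± 0.05 (0.141).

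In the angiopoietin and TIE list 2 genes rose and 1 fell of 8, beside 6.73% of all features called higher and 8.0% called lower. Dok2, an adaptor that docks to TEK and is also a gene of myeloid cells, rose by 0.60 ± 0.07 (adjusted p 0.00858). Angpt1, the activating ligand of TEK, rose by 0.55 ± 0.11 (0.0389), a call kept in 1 of the 6 fits with 1 array left out. Foxo1, a transcription factor that TEK signalling restrains, fell by 0.22 on the log2 scale (SE 0.02, 0.00396). Angpt2, the context-dependent antagonist, was at 0.36 ± 0.12 (0.138), and Ptprb, the phosphatase that acts on TEK, at 0.14 ± 0.09 (0.411).

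Of 13 measured genes of the SOXF, NOTCH and arterial or venous list, 4 rose and 1 fell. Over all features 6.73% were called higher and 8.0% lower. Dll4, the arterial NOTCH ligand, rose by 0.82 ± 0.12 (adjusted p 0.0145), with 0.98, 0.64 and 0.75 in the ApoE KO aortas, against 0.04, -0.18 and 0.04 in the WT aortas. The Dll4 probe had a level of 0.41, and its call was lost after quantile normalization (adjusted p 0.0891 in limma). The arterial gap junction gene Gja4 rose by 0.41 ± 0.05 (0.00739), Notch4 by 0.36 ± 0.06 (0.0225) and Nrp1 as above. Nr2f2, which specifies venous fate, had a log2 fold change of -0.38 ± 0.07 (0.0384), and its dimmest probe was at 0.03. Other arterial or venous genes of the list were not called, with Hey1 at 0.20, Hey2 at -0.27, Efnb2 at -0.02 and Ephb4 at -0.04. Arterial or venous genes thus did not move as 1 set. Sox7, the remaining SOXF gene, was at 0.49 ± 0.11 (0.06) with 0.71, 0.47 and 0.58 in the ApoE KO aortas, against 0.30, 0.00 and 0.00 in the WT aortas. All 3 SOXF genes thus had non-overlapping groups upward, against 11.0% of all features, and Sox17 was the only one of them that passed. The call of Gja4 held in all 6 fits with 1 array left out, that of Dll4 in 4, that of Notch4 in 2 and that of Nr2f2 in 1.

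Of 10 measured genes of the KLF2 list, 4 rose and 1 fell, beside 6.73% of all features called higher and 8.0% called lower. Klf4, the paralogue that flow induces with Klf2, rose by 0.45 ± 0.10 (adjusted p 0.0458), a call kept in 1 of the 6 fits with 1 array left out. Thbd, the anticoagulant receptor that KLF2 raises, was at 0.08 ± 0.05 (0.446). Hmox1 (1.57 ± 0.09, 0.00147), the haem oxygenase that macrophages also make, and its activator Nfe2l2 (0.42 ± 0.07, 0.02) rose, as did Edn1 (0.70 ± 0.08, 0.00922), the vasoconstrictor endothelin. The call of Nfe2l2 was kept in 2 of these fits and those of Hmox1 and Edn1 in all 6. Mef2c, a gene of the MEF2 factors, had a log2 fold change of -0.22 ± 0.03 (0.0109).

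Of 16 measured regulators of NOS3, 2 rose and 3 fell, beside 6.73% of all features called higher and 8.0% called lower. Nostrin, which draws NOS3 away from the membrane, rose by 0.78 ± 0.06 (adjusted p 0.00279), with 0.80, 0.73 and 0.74 in the ApoE KO aortas, against 0.09, -0.12 and -0.04 in the WT aortas. Ddah1, which breaks down an endogenous NOS inhibitor, rose by 0.55 ± 0.06 (0.00634). Cav1, the caveolar protein that holds NOS3 inactive and is abundant in smooth muscle too, had a log2 fold change of -0.53 ± 0.06 (0.0063), with -0.56, -0.60 and -0.53 in the ApoE KO aortas, against 0.03, 0.02 and -0.14 in the WT aortas. Spr, an enzyme of cofactor synthesis, was at -0.26 ± 0.04 (0.0137) and Nosip, a NOS3-interacting protein, at -0.32 ± 0.06 (0.0306), both called lower. The call of Nosip was kept in 1 and that of Spr in 4 of the 6 fits with 1 array left out.

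**Figure D5:**
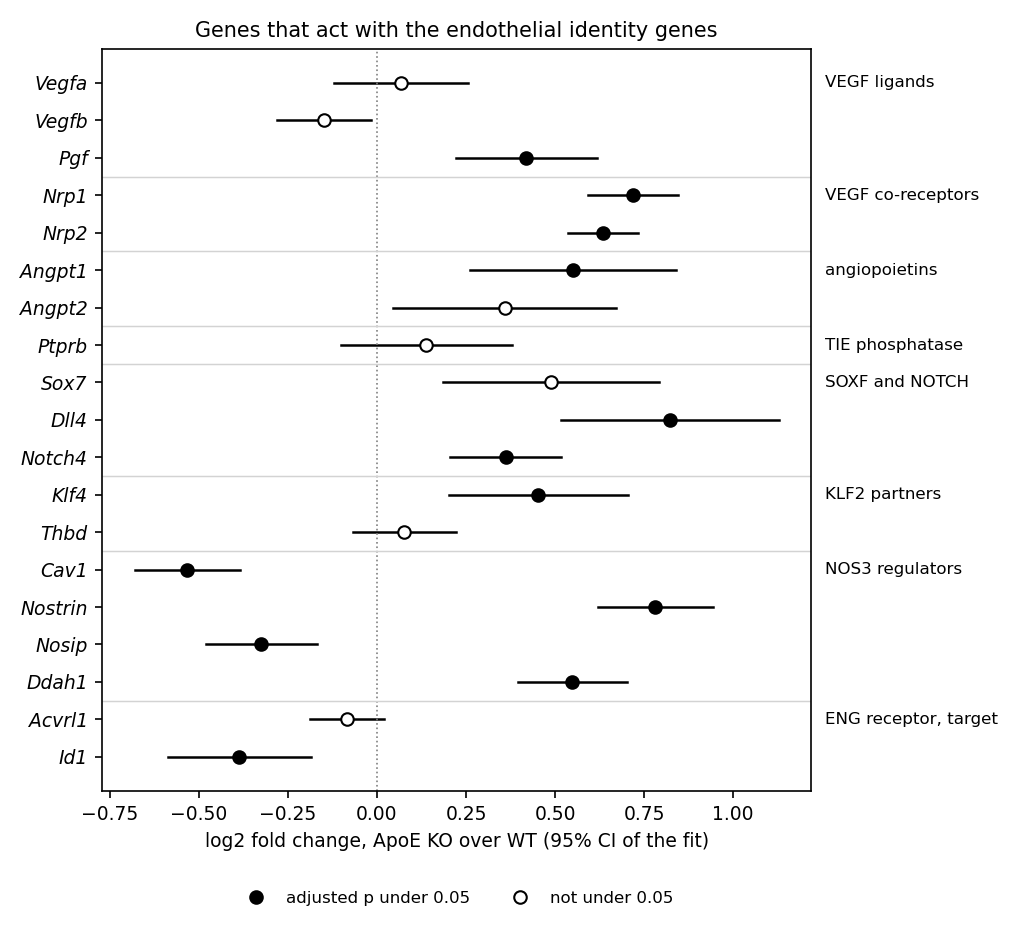
Log2 fold change (x axis, ApoE KO over WT, limma) with the 95% confidence interval for ligands, co-receptors, regulators and targets of the endothelial identity genes, grouped by role at the right. Filled points passed an adjusted p of 0.05. Of the genes drawn, Dll4 (0.82), Nostrin (0.78) and Nrp1 (0.72) stand highest and Cav1 (-0.53) lowest.

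Of 15 genes of Weibel-Palade bodies and haemostasis, which handle VWF or act beside it, 5 rose and 1 fell. Over all features 6.73% were called higher and 8.0% lower. Cd63 (0.46 ± 0.03), a tetraspanin of these bodies and of lysosomes, Procr (0.87 ± 0.07), the endothelial protein C receptor, and Unc13d (0.57 ± 0.05), a priming factor of granule release, had the lowest p values (adjusted p 0.00244, 0.00295 and 0.00373). Edn1 rose as above, and Selp, the P-selectin stored beside VWF, rose by 0.24 ± 0.05 (0.0433), a call kept in 1 of the 6 fits with 1 array left out. Rab27a, a GTPase of the same bodies, had a log2 fold change of -0.35 ± 0.05 (0.0146), with the call kept in 2. Of 18 genes of BMP and TGF-beta signalling around ENG, 0 rose and 1 fell, beside the same 6.73% called higher and 8.0% called lower. The gene that fell was Id1, a target of that signalling, at -0.39 ± 0.08 (0.0374), called in 1 of these fits. At an unadjusted p under 0.05, 1 gene of this list was higher. Tgfbr2 (0.21, 0.174) and Bmpr2 (0.15, 0.21), receptors of TGF-beta and BMP ligands, had the next lowest p. Acvrl1, the receptor that ENG serves, was at -0.08 ± 0.04 (0.254) on a probe with a level of 0.12.

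Of 6 lymphatic endothelial markers, 1 rose and 0 fell, beside 6.73% of all features called higher and 8.0% called lower. The marker that rose was Pdpn (0.90 ± 0.10, adjusted p 0.00677), which macrophages and fibroblasts can express too, while Lyve1 (0.33, 0.113) and Reln (0.07, 0.238) did not pass, Prox1 was at 0.00 and Ccl21a had a level under 0.05. Across all 7 pathway lists, 26 of 84 measured genes were called, 18 higher and 8 lower, beside 14.7% of all features called in either direction. Among features with a level of at least 0.5, fitted alone, 43.4% were called. The count is therefore no measure of an excess over features of like brightness. Of these 26, 14 kept their call in every fit with 1 array left out and 3 (Hmox1, Procr and Unc13d) after quantile normalization. Levels were under 0.5 for the called Dll4 (0.41), Nrp2 (0.32), Mef2c (0.32), Unc13d (0.45) and Selp (0.42). This also held for the general endothelial marker Myct1 (0.48). On simulated arrays nearly all false calls of this fit lay at such levels, which does not show how many real calls are false.

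Outside all lists, the 3 genes with a level of at least 0.5 whose 6 log2 ratios lay closest to the median profile of the members were Ceacam2, Tubb2a-ps2 and Dnajc15. Their root mean square differences from it over the 6 arrays were 0.03, 0.03 and 0.04 on the log2 scale, out of 7969 candidates. Tubb2a-ps2 is a pseudogene, and its probe may read other tubulin transcripts.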

How the data were processed

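By the labels' protocols, Trizol-extracted aorta RNA (100 ng) went through repeated amplification before Cy5 labelling. The submitters' processing notes name Agilent Feature Extraction 8.5.1.1, while background correction, dye normalization and centring were not stated in any source used. The authors deposited log10 ratios (own RNA to common reference), converted here to log2, and intensity values in arbitrary units with steps of 0.01. Of 18 per-sample columns in the intensity table, 15 were not used; the others gave the first-channel intensity of the C57BL6-headed arrays, taken as the reference. Where these 3 intensities were equal and between 0.05 and 0.3, that intensity times 10 to the power of a nonzero WT value was a whole number of steps (within 0.02) for 99.8% of 1268 values, and for 0.1% with the sign turned. This set the scale; that the first channel is the reference, in ApoE KO arrays too, was taken from the dye labels.

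Each array measured 39480 to 39551 probes, and 194 probes with any missing value were dropped. Names came from mouse RefSeq (GRCm38.p6) by accession, symbol or synonym, and a gene was represented by its brightest probe. A level is the reference intensity averaged over the C57BL6-headed arrays, multiplied by the mean of 1 and the average ratio. All 35027 features were fitted without a block in limma 3.58.1 (lmFit, eBayes; R 4.3.3), and calls required a two-sided Benjamini-Hochberg p under 0.05. On simulated arrays the fit over all features made many more false calls than its threshold allows, nearly all under a level of 0.5 and most in features that rounding left with equal values within each group, while a fit at a level of at least 0.5 stayed near it. Every simulated feature had the same spread in both groups, which the real features did not. The simulation therefore cannot show how many of the real calls are false, at any level. Of the 5158 calls 31 had equal values within both groups, and 0 members did. Vwf and Flt1 lie under a level of 0.5. Precision is limited by how few arrays there were. WT replicates 2 and 3 share a number in their source names; their values differed (SD of the difference 0.173 on the log2 scale), which does not show separate animals. Genes were named if they were members, Apoe, 1 of 12 direct partners listed by name, or 1 of the 3 nearest profiles. Also named were the 3 of lowest p in a pathway or endothelial marker list and genes called in a list with at most 5 calls. For the other marker lists, naming the 3 of lowest p was planned but not followed throughout. Those named beyond these rules were chosen after their values were seen (Emcn, Mmrn2, Podxl, Robo4, Cldn5, Clec14a, Egfl7, Aplnr, Pecam1, Cdh5, Erg, Icam2, Selp, Rab27a, Hey1, Hey2, Efnb2, Ephb4, Cd68, Prox1, Ccl21a, Gp6 and Des). Members and lists were chosen with earlier results of these data known.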

Additional observations from a re-analysis of the deposited data

How the results depend on the processing

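The number of members called higher was 3, beside 6.73% of all features. It was 1 (Sox17) with the replicate block (3.66% of features), 5 after centring each array (9.15%) and 0 after quantile normalization (2.49%). Among features with a level of at least 0.5 it was 4 (19.0%), and with 1 array left out in turn 1 to 4 (4.9% to 5.92%). In the 15 alternatives 0 members were called lower, beside 2.23% to 24.5% of features. After quantile normalization 1 member was higher at an unadjusted p under 0.05 in limma, a count without a share of all features beside it. The median log2 fold change of the members was 0.26, between 0.2352 and 0.3113 with 1 array left out and 0.1754 after quantile normalization. Sox17 kept its call in 14 of 15 alternatives (adjusted p 0.0526 after quantile normalization), Vwf in 9 of 14 and Flt1 in 5 of 14. Sign changes were seen for Nos3 after centring (0.0064) and quantile normalization (0.0308) and for Eng without ApoE KO replicate 2 (-0.0222) or WT replicate 2 (-0.023), against up to 0.1096 with another array left out. The cause was not tested, except that quantile normalization by its construction forces the wider ApoE KO ratios (SD 0.236 to 0.259) and the narrower WT ratios (SD 0.076 to 0.136) to 1 distribution. Over all features 5158 were called, 2582 with the replicate block and 1651 after quantile normalization. Among pathway genes, 18 were called higher and 8 lower, beside 6.73% and 8.0% of all features. With the replicate block these were 9 and 1 (3.66% and 3.71% of features), and after quantile normalization 3 and 0 (2.49% and 2.23%). With 1 array left out they were 12 to 18 and 4 to 9 (4.9% to 5.92% and 5.13% to 8.07%). Against general endothelial markers, Tek changed sign with the mean of the list (-0.0044) and without WT replicate 3, where it was lowest at -0.017, and ranged up to 0.115. The other members kept their sign there, between 0.30 and 0.34 for Vwf, 0.32 and 0.42 for Sox17 and -0.22 and -0.16 for Nos3 with 1 array left out. Same-numbered arrays did not deviate together (correlations of deviations over 9034 features 0.08, -0.47 and -0.15 for replicates 1, 2 and 3), and ApoE KO replicate 2 went best with WT replicate 3 (0.61). Deviations from the mean of a group of 3 arrays are tied to one another, so these values cannot decide whether the numbers pair the samples. Every array had probes at low signal, and 4 of the 10 members had a reference intensity under 0.2, where 1 rounding step limits what can be seen. Background correction could not be varied from the deposited values.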
